A study of Homo sapiens with 12 samples.

Results

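The genes described here make up the collagen matrix of a tumour cell and its assembly line: 60 genes, of 16384 symbols in the count tables, that were chosen by name. They are every collagen chain (39 genes, symbols of the form COL, a type number, A and a chain number), the lysyl oxidases LOX and LOXL1 to LOXL4, the lysyl hydroxylases PLOD1 to PLOD3, the collagen chaperone SERPINH1, and the secreted matrix proteins FN1, SPARC, FBN1, FBN2, FSTL1, TNC, THBS1, THBS2, POSTN, VCAN, BGN and HSPG2. Of the 60 genes, 40 passed the filter on low counts and were tested among 12645 genes, and the other 20 had at most 22 counts in any library. RNA was sequenced from MDA-MB-231 cells, an established line of triple-negative (oestrogen receptor, progesterone receptor and HER2 negative) human breast cancer, in 12 libraries. There were 4 groups of 3 libraries: cells given the solvent DMSO (control), cells given CAR (cardamonin, a plant chalcone) at 10 µmol/L, cells given JQ1 (an inhibitor of the BET bromodomain proteins, which read acetylated histones) at 25 µmol/L, and cells given both at those doses (Combination). All groups are therefore 1 line at 1 dose of each agent, and the time of treatment is not given in the labels.

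Collagen chains are threaded into the endoplasmic reticulum, where prolyl and lysyl hydroxylases modify them, chains wind into a triple helix, and SERPINH1 (HSP47) binds the helix until it leaves. Outside the cell the lysyl oxidases turn lysine and hydroxylysine side chains into reactive aldehydes, which join neighbouring molecules into stiff fibrils or networks. Fibronectin, fibrillins, thrombospondins and perlecan share this matrix and bind both collagen and cells. In breast tumours most fibrillar collagen comes from fibroblasts, while carcinoma cells contribute basement membrane chains, crosslinking enzymes and matricellular proteins (secreted proteins that modulate cells rather than build fibrils).

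Total counts ran from 17449715 to 19754456 per library. Levels are given as CPM (each count divided by its library's total and scaled to a common total) in replicates 1, 2 and 3. Log2 fold changes come from edgeR's quasi-likelihood test, with adjusted p-values under 0.05 over all tested genes taken as a call. The standard error printed with each was derived from the test. It is the size of the log2 fold change divided by the square root of the F statistic. This standard error is approximate and can be too small where counts are low. The fold changes use TMM scaling, so they can differ a little from the ratio of the CPM values: scaling by total counts alone moves the median of all genes by -0.12 (JQ1), -0.21 (Combination) and -0.14 (Combination against CAR) on the log2 scale. One control library stands apart. In control replicate 3 the deviation of a gene from the mean of the other control libraries fell with transcript length (Spearman rho -0.74 across genes). For replicates 1 and 2 rho was 0.61 and 0.66, but replicate 3 is part of their reference, so these values depend on it. The chi-square per degree of freedom between gene counts was 1.645 for replicates 1 and 2. Against replicate 3 it was 10.63 for replicate 1 and 12.61 for replicate 2. The tested matrix genes are long, with a median transcript of 5867.5 bases against 3208 for all tested genes. Where a call given below for a single gene changes without that library or in a fit with a transcript length offset, that value is given with it. Combination replicate 1 carried 161 CPM of liver-type transcripts, against 1.63 to 12.3 CPM in the other 11 libraries. Markers of the line moved with JQ1: VIM stood at 2258 CPM in control, 2199 with CAR, 873 with JQ1 and 519 with the Combination, CAV1 at 1055, 885, 293 and 182, AXL at 1520, 1391, 727 and 572, MSN at 1223, 1254, 505 and 497, and CD44 at 786, 776, 587 and 575. Their part in the results on the matrix genes was not tested. Of the markers chosen as low in this line, ESR1, PGR and CDH1 had at most 9, 13 and 13 counts in any library. ERBB2, the HER2 gene, was measured at 120 CPM in control, 102 with CAR, 149 with JQ1 and 134 with the Combination. In the same order EPCAM stood at 16.7, 14.2, 3.18 and 2.955 CPM, and GATA3 at 8.26, 8.06, 2.405 and 1.29 CPM. The 10 fibroblast markers looked at include 3 collagen chains described here. They summed to 50.2 to 52.9 CPM in control and 25.6 to 28.5 with CAR. The sums were 99.8 to 99.9 CPM with JQ1 and 41.3 to 41.7 with the Combination. PDGFRB made up 95.1 ± 0.49 CPM of the JQ1 sum (SD, n = 3). Of the 5 tested markers, 1 was called higher with JQ1 and 3 lower, against 41.5% and 42.2% of all tested genes. From control to JQ1, ACTA2 went from 5.14 to 0.675 CPM and FBLN1 from 3.93 to 0.439 CPM. DCN, LUM, FAP and PDGFRA had at most 3 counts in any library. Leukocyte markers summed to at most 3.53 CPM. Because cells of 1 kind were collected in bulk, fewer cells that transcribe a gene and less RNA per cell cannot be told apart.

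The matrix genes fell more often than they rose in every comparison with control. With CAR, 6 of the 40 tested genes were higher and 23 lower, where 27.3% of all tested genes were called higher and 30.1% lower. JQ1 raised 10 and lowered 23, against 41.5% higher and 42.2% lower among all tested genes. In the Combination 7 were higher and 29 lower, against 42.6% and 42.8%. Their median log2 fold change was -0.34 with CAR, -0.96 with JQ1 and -1.42 with the Combination, while the medians over all tested genes were -0.02, -0.0079 and 0.0015. Called and at least 2-fold lower were 4, 20 and 25 of the 40 genes in CAR, JQ1 and the Combination, against 3.45%, 18.2% and 20.3% of all tested genes. Called and at least 2-fold higher were 0, 6 and 3, against 0.925%, 11.7% and 12.5%.

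Setting the Combination against each single agent gave the same lean. Against JQ1 alone, 3 genes were higher and 21 lower, with 26% of all tested genes called higher and 25.9% lower. Against CAR alone, 10 were higher and 24 lower, with 42.4% and 43% among all tested genes. Without control replicate 3 and Combination replicate 1, the higher and lower counts were 6 and 25 (CAR), 10 and 26 (JQ1), 7 and 29 (Combination), 4 and 21 (Combination against JQ1) and 11 and 23 (Combination against CAR). Of all tested genes in that fit, 29.2% were higher and 32.7% lower with CAR, and 41.9% and 42.5% with JQ1. The Combination gave 42.2% and 42.4% against control, 27.9% and 27.5% against JQ1, and 42.7% and 43.2% against CAR. Scaling by total counts shifted the balance over all genes to 20.8% higher and 37.5% lower for CAR and to 36.1% and 47.8% for JQ1. It became 33.3% and 51.4% for the Combination, 17.6% and 36% for the Combination against JQ1, and 36.8% and 48.8% against CAR. The matrix genes then split 6 to 25 (CAR), 9 to 26 (JQ1), 5 to 30 (Combination), 3 to 25 (against JQ1) and 9 to 24 (against CAR). Of the 40 genes, 27 were called with no overlap between the libraries of the groups with CAR, 33 with JQ1 and 34 with the Combination, against 50.8%, 77.8% and 76.6% of all tested genes. These comparisons share their control or single-agent libraries, so their calls are not independent of each other.

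**Figure D1:**
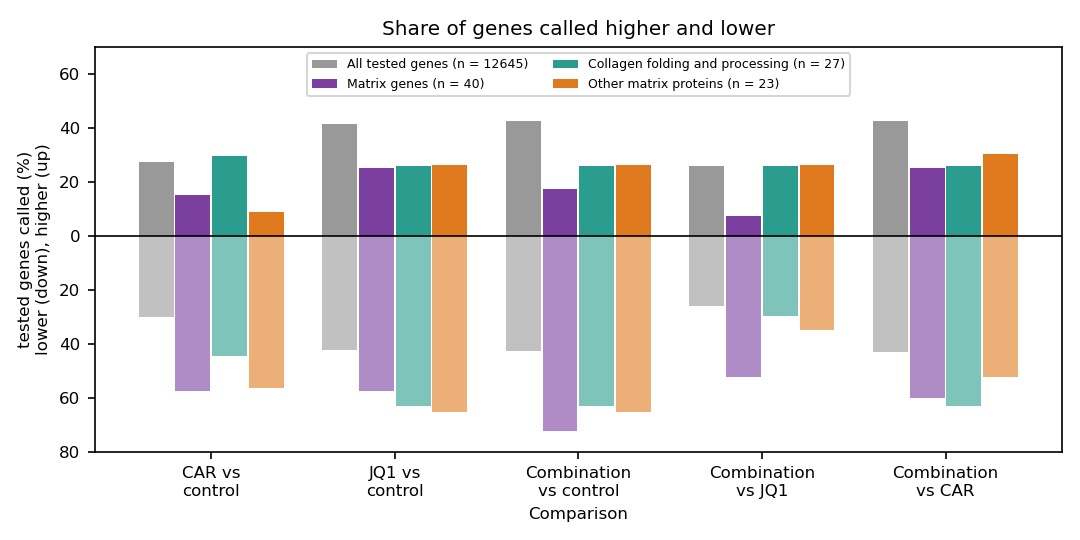
Share of tested genes called higher (bars up) and lower (bars down, paler) at an adjusted p under 0.05 in each comparison, in percent, for all 12645 tested genes, the 40 tested matrix genes, 27 tested genes of collagen folding and processing and 23 other tested matrix proteins. For the matrix genes the lower bar is longer than the upper one in all 5 comparisons, and it reaches 72.5% in the Combination.

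Reading across CAR, JQ1 and the Combination, the most frequent pattern was a fall in all 3, found in 14 of the 40 genes and in 11.1% of all tested genes. Among the 14, the CAR calls of COL4A1, COL4A4, COL1A1, COL9A3 and THBS1 were lost when single libraries were left out. Another 5 genes (SERPINH1, LOX, LOXL3, COL27A1 and COL7A1) rose with CAR and fell with JQ1 and with the Combination, a pattern held by 11.6% of all tested genes. The reverse pattern, a fall with CAR and a rise with JQ1 and with the Combination, was called for 4 genes and for 12.2% of all tested genes. Of the 4, HSPG2 and COL11A2 held under every scaling while the Combination calls of COL6A1 and FBN1 did not. The summed level of the 60 genes was 4399 ± 308 CPM in control (SD, n = 3), 3588 ± 58.4 with CAR, 3877 ± 37.7 with JQ1 and 2722 ± 21.3 with the Combination. THBS1 and FN1 together supplied 33.6% of that sum in control and 25.9% in the Combination. No library of the Combination came above 2746 CPM and no control library below 4043 CPM, which was the value of control replicate 3.

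**Figure D2:**
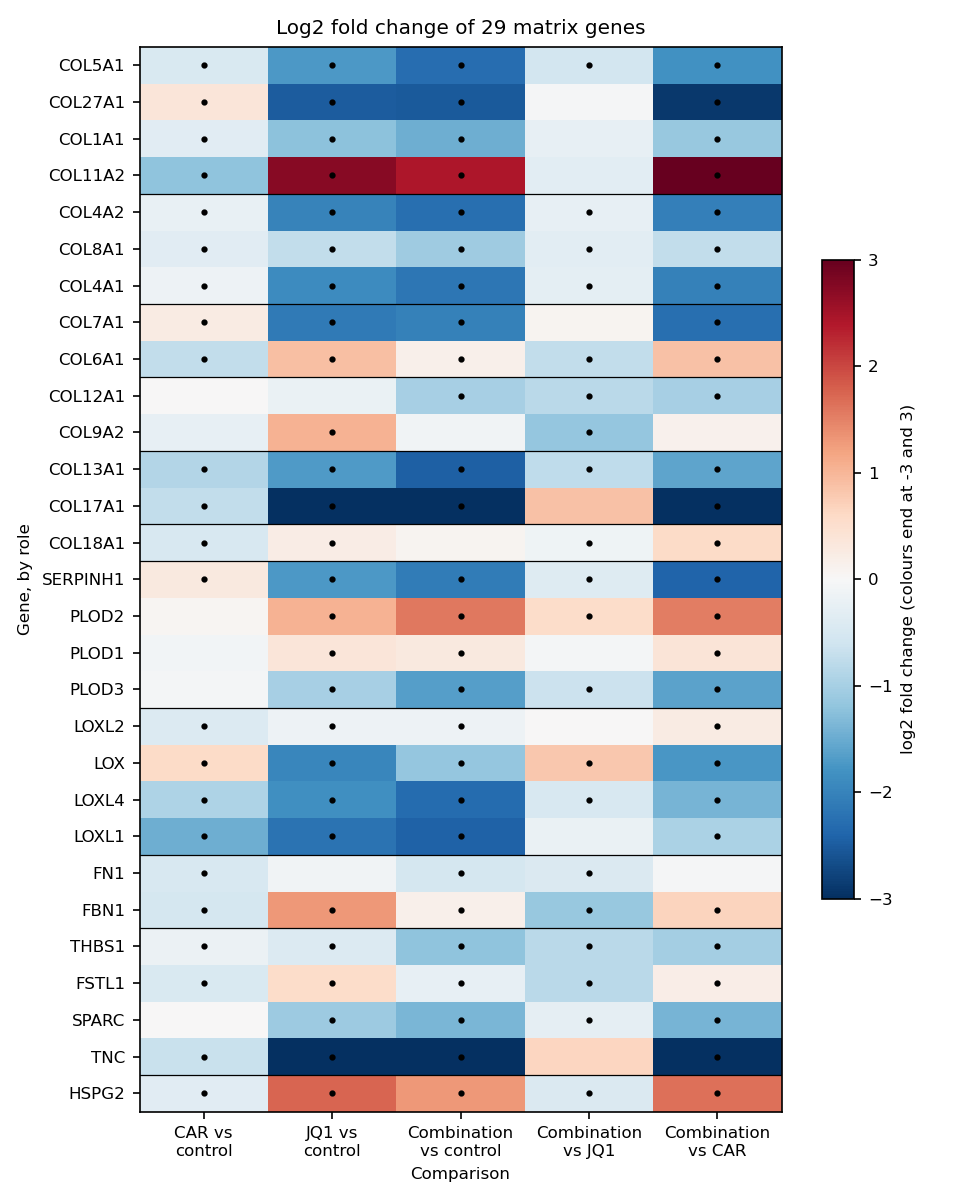
Log2 fold change of the 29 matrix genes with a group mean of at least 5 CPM (rows, grouped by role) in 5 comparisons (columns); blue is lower, red is higher, colours end at -3 and 3, and a dot marks a call. JQ1 and the Combination columns are mostly blue, with HSPG2, PLOD2 and COL11A2 red in both.

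The pair COL4A1 and COL4A2 encodes the chains of the most widespread basement membrane collagen. The genes lie head to head on chromosome 13 and share the stretch between their starts as a promoter. This stretch (chr13:110307158-110307283, RefSeq, GRCh38.p14, 126 bases, read on the plus strand towards COL4A2) is shown because both genes fell together; capitals mark a CCAAT box and a GGGCGG box.
COL4A1-COL4A2: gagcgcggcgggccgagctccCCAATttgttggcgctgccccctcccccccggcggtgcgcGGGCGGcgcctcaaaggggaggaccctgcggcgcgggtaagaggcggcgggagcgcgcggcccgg
COL4A1 stood at 92.4, 93.2 and 79.97 CPM in the control libraries, 76.5, 77.8 and 75.7 CPM with CAR, 22.6, 22.3 and 21.1 CPM with JQ1 and 16.2, 16.5 and 18.1 CPM with the Combination. COL4A2 stood at 241, 239 and 231 CPM in the control libraries, 199.5, 197 and 190.2 CPM with CAR, 55.2, 53.9 and 53.3 CPM with JQ1 and 41.8, 42.8 and 44.1 CPM with the Combination. The JQ1 and Combination libraries were far below all others for both genes, and the Combination libraries were the lowest. The log2 fold change with JQ1 was -1.89 ± 0.063 for COL4A1 and -2.01 ± 0.041 for COL4A2 (adjusted p = 2.5e-17 and 6.53e-21), and with the Combination -2.18 ± 0.066 and -2.26 ± 0.042 (adjusted p = 3.41e-18 and 1.32e-21). The Combination was lower than JQ1 alone, with log2 changes of -0.29 ± 0.077 and -0.25 ± 0.045 (adjusted p = 0.00308 and 9.27e-05). With CAR alone COL4A2 fell by 0.21 on the log2 scale (adjusted p = 4.54e-05), and COL4A1 by 0.14 (adjusted p = 0.0293), a call lost when control replicate 1 or 2 or any 1 CAR replicate was left out (-0.10 to -0.15). Per kilobase of transcript, COL4A2 exceeded COL4A1 by a ratio of 2.74 ± 0.18 in control (SD, n = 3), 2.60 ± 0.051 with CAR, 2.51 ± 0.058 with JQ1 and 2.59 ± 0.085 with the Combination, so the balance of the pair moved little while its level changed.

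COL8A1, a short-chain collagen of sheet-like networks around vessels and in Descemet's membrane, followed with smaller changes. It stood at 127, 129 and 119.5 CPM in the control libraries, 94.2, 93.9 and 95.2 CPM with CAR, 70.9, 68.6 and 66.5 CPM with JQ1 and 50.5, 52.4 and 51.99 CPM with the Combination. Each group lay below the one before it, with no overlap. The log2 fold changes were -0.34 ± 0.042 with CAR, -0.74 ± 0.043 with JQ1 and -1.07 ± 0.044 with the Combination (adjusted p = 6.3e-07, 4.39e-13 and 1.04e-15). Of the 9 network collagens listed, 5 were tested, and all 5 were called lower with CAR and with the Combination and 4 with JQ1, where 30.1%, 42.8% and 42.2% of all tested genes were; the CAR calls of COL4A1, COL4A4 and COL4A5 depend on single libraries, as given with each gene.

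Among the fibril-forming chains, COL5A1 had the highest level per kilobase in control; collagen V seeds and sizes collagen I fibrils. It stood at 116, 108 and 105 CPM in the control libraries, 79.2, 72.8 and 75.3 CPM with CAR, 30.1, 31.7 and 29.2 CPM with JQ1 and 19.1, 19.5 and 20.04 CPM with the Combination. The order control, CAR, JQ1, Combination held without overlap. Log2 fold changes were -0.47 ± 0.048, -1.73 ± 0.053 and -2.28 ± 0.056 (adjusted p = 4.26e-08, 5.82e-18 and 1.23e-19), and the Combination lay -0.55 ± 0.064 from JQ1 alone (adjusted p = 3.32e-07). Its partner chain COL5A2 was scarce, with summed counts over 3 libraries of 93 in control, 149 with CAR, 98 with JQ1 and 144 with the Combination, and it was called higher with CAR and with the Combination. The call with CAR was lost without control replicate 2 (log2 0.51 in place of 0.69, adjusted p = 0.0577). Per kilobase, the ratio of COL5A1 to COL5A2 was 58.4 ± 16.5 in control, 24.5 ± 0.55 with CAR, 15.2 ± 4.50 with JQ1 and 6.31 ± 0.59 with the Combination (SD, n = 3).

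COL27A1, a fibrillar chain best known from cartilage, moved in opposite directions with the agents. It stood at 25.8, 27.2 and 24.8 CPM in the control libraries, 31.5, 31.1 and 33.3 CPM with CAR, 4.26, 4.08 and 4.36 CPM with JQ1 and 3.51, 3.85 and 4.37 CPM with the Combination. CAR libraries were the highest and both JQ1-containing groups the lowest. CAR raised it by 0.37 ± 0.062 and JQ1 lowered it (log2 -2.50 ± 0.087; adjusted p = 3.29e-05 and 5.65e-17 in that order). In the Combination it stood -2.52 ± 0.088 from control and -0.03 ± 0.12 from JQ1 alone, the latter not called (adjusted p = 0.888).

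COL1A1, the main chain of collagen I, was low throughout: 7.60 ± 0.54 CPM in control, 5.77 ± 0.67 with CAR, 2.99 ± 0.52 with JQ1 and 2.39 ± 0.16 with the Combination (SD, n = 3). It fell with JQ1 (-1.22 ± 0.14) and with the Combination (-1.46 ± 0.14); with CAR the change of -0.33 ± 0.12 (adjusted p = 0.0233) lost its call without control replicate 3 (-0.27) or without CAR replicate 3 (-0.24). COL11A2, a minor fibrillar chain of cartilage, went the other way with JQ1. It stood at 1.06 ± 0.31 CPM in control, 0.43 ± 0.24 with CAR, 6.50 ± 0.17 with JQ1 and 4.95 ± 0.67 with the Combination (SD, n = 3). Its log2 fold changes were -1.21 ± 0.34, 2.73 ± 0.20 and 2.42 ± 0.21, all called, and the JQ1 rise was the largest of any matrix gene tested. COL1A2 and COL3A1, which pair with or accompany collagen I in fibroblasts, had summed counts of at most 51 and 5 in any group.

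Anchoring and filament collagens split. COL7A1 forms the anchoring fibrils under epithelia. It stood at 52.1, 49.5 and 51.6 CPM in the control libraries, 64.04, 58.3 and 52 CPM with CAR, 10.99, 11.3 and 10.4 CPM with JQ1 and 9.81, 11.1 and 11.9 CPM with the Combination. JQ1 and Combination libraries lay far below the rest, and the lowest CAR library fell within the control range. JQ1 lowered it (log2 -2.11 ± 0.081) and so did the Combination (-2.02 ± 0.081) (adjusted p = 2.64e-16 and 4.98e-16), while CAR raised it by 0.25 ± 0.064 (adjusted p = 0.00205). COL6A1 encodes a chain of the beaded filaments around cells. It stood at 20.8, 21.6 and 20.8 CPM in the control libraries, 12.1, 13.2 and 10.98 CPM with CAR, 36.9, 34.9 and 36.9 CPM with JQ1 and 19.02, 20.8 and 20.97 CPM with the Combination. CAR libraries were the lowest, JQ1 libraries the highest, and the Combination overlapped control. CAR lowered it (log2 -0.74 ± 0.075) and JQ1 raised it by 0.90 ± 0.064 (adjusted p = 4.06e-08 and 1.62e-11). The Combination lay -0.75 ± 0.065 from JQ1 alone (adjusted p = 4.12e-09), and its call against control (0.15 ± 0.069, adjusted p = 0.0459) was lost with RLE (0.14) or upper-quartile scaling (0.08), with DESeq2 (0.14), with only the compared groups in the fit (0.14), with a replicate block (0.15) and without control replicate 1 or 3, CAR replicate 1, JQ1 replicate 1 or Combination replicate 2 or 3 (0.13 to 0.15), and it turned to -0.05, not called, with total count scaling.

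The partner chains of COL6A1 did not rise with it under JQ1. With CAR neither was called, although both means lay below control. From control to CAR, COL6A2 went from 3.38 to 2.71 CPM and COL6A3 from 3.00 to 2.55 CPM. COL6A2, 93046 bases further along chromosome 21, had summed counts of 188 in control, 156 with CAR, 151 with JQ1 and 172 with the Combination and was called in none of these 3 comparisons with control. COL6A3, on another chromosome, had 167, 147, 21 and 14, and was called lower with JQ1 and with the Combination. Per kilobase, COL6A1 exceeded COL6A2 by a ratio of 5.09 ± 0.19 in control, 3.64 ± 0.37 with CAR, 10.9 ± 1.77 with JQ1 and 5.35 ± 0.41 with the Combination (SD, n = 3). Its ratio to COL6A3 went from 17.9 ± 1.79 in control and 12.3 ± 2.19 with CAR to 251 ± 66.2 with JQ1 and 209 ± 40.6 with the Combination.

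**Figure D3:**
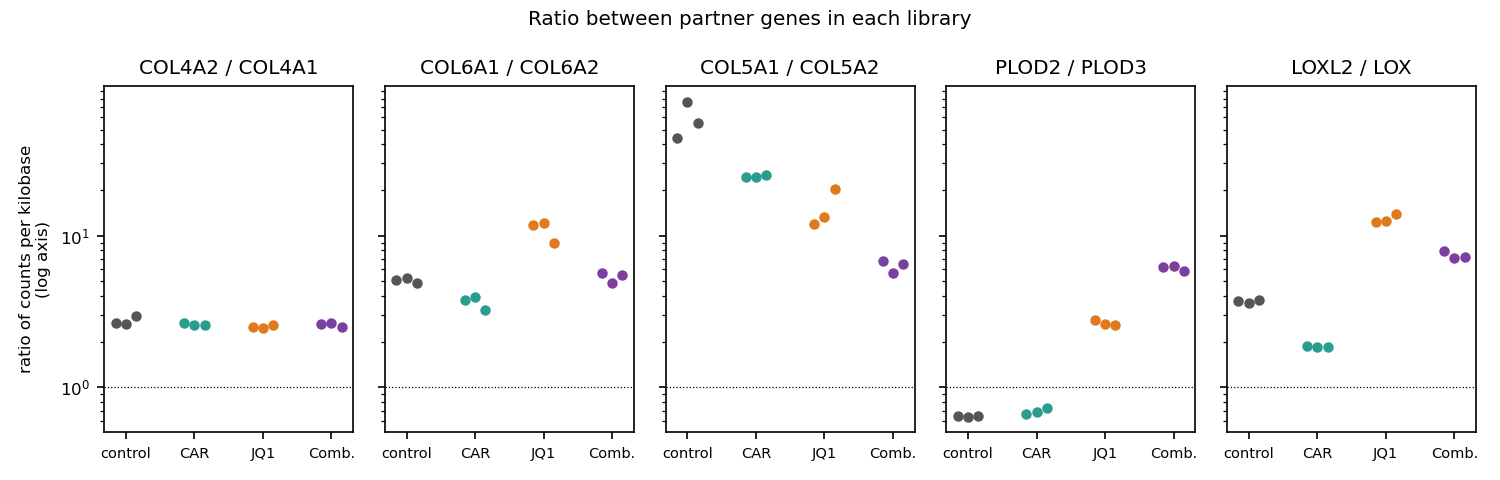
Ratio of counts per kilobase of transcript between 5 pairs of partner genes in each library (points, replicates 1 to 3 from left to right; Comb. is the Combination) on a log axis, with a dotted line at equal levels. COL4A2 to COL4A1 stays between 2.46 and 2.94 in all 12 libraries, while PLOD2 to PLOD3 goes from 0.64 in control to 6.09 in the Combination.

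COL12A1, a fibril-associated collagen that decorates collagen I fibrils, differed from control in the Combination but was called with neither agent alone. It stood at 274, 281 and 196 CPM in the control libraries, 245, 233 and 239.9 CPM with CAR, 207, 205 and 190 CPM with JQ1 and 111, 107 and 108 CPM with the Combination. The Combination libraries were all far below the others, and control replicate 3 lay apart from its own group. The log2 fold change was -0.997 ± 0.12 with the Combination, -0.20 ± 0.12 with JQ1 and 0.00 ± 0.11 with CAR (adjusted p = 1.91e-05, 0.134 and 1). Without control replicate 3, JQ1 gave -0.35 and CAR -0.15, both called (adjusted p = 1.2e-13 and 9.16e-05). The JQ1 value was also called with a transcript length offset (-0.41, adjusted p = 4.47e-07), with upper-quartile scaling (-0.26) and with total count scaling (-0.32). Against JQ1 alone the Combination gave -0.80 ± 0.12 (adjusted p = 0.000305), a comparison without control libraries. COL9A2, a fibril-associated chain of cartilage, stood at 4.70 ± 0.46 CPM in control, 3.77 ± 0.50 with CAR, 8.96 ± 1.11 with JQ1 and 3.75 ± 0.82 with the Combination (SD, n = 3). JQ1 raised it by 1.05 ± 0.14 (adjusted p = 3.63e-07), and in the Combination it lay -1.17 ± 0.14 from JQ1 alone (adjusted p = 7.55e-07) and was not called against control (-0.12 ± 0.16).

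Both tested membrane-spanning collagens were called lower in all 3 comparisons with control, as were 11.1% of all tested genes. COL25A1, also membrane-spanning, was too scarce to test. Its summed counts were 1 in control, 1 with CAR, 7 with JQ1 and 12 with the Combination. COL13A1, found at cell-matrix junctions, was the sixth of the matrix genes per kilobase in control. It stood at 166, 166 and 176 CPM in the control libraries, 84.9, 92.4 and 85.8 CPM with CAR, 47.6, 49.9 and 46.1 CPM with JQ1 and 26.2, 25.7 and 28.3 CPM with the Combination. Every group lay below the one before it. Log2 fold changes were -0.88 ± 0.045, -1.70 ± 0.048 and -2.45 ± 0.051 with CAR, JQ1 and the Combination (adjusted p = 1.2e-12, 1.41e-18 and 8.91e-21). COL17A1, the hemidesmosome collagen of epithelial cells, stood at 6.99 ± 0.20 CPM in control and 4.02 ± 0.62 with CAR (SD, n = 3) and was nearly lost with JQ1, at 0.26, 0 and 0.23 CPM, and with the Combination, at 0.27, 0.27 and 0.33 CPM. Its log2 fold changes were -0.73 ± 0.15, -5.24 ± 0.29 and -4.36 ± 0.26 with CAR, JQ1 and the Combination (adjusted p = 0.000352, 2.05e-13 and 7.22e-13); the fitted values of the last 2 rest on a few counts.

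COL18A1, whose C-terminal fragment is endostatin, went down with CAR and up with JQ1. It stood at 74.7, 72.9 and 76.2 CPM in the control libraries, 53.96, 51.6 and 47.2 CPM with CAR, 81.3, 80.1 and 78.4 CPM with JQ1 and 66.5, 68.2 and 71.4 CPM with the Combination. CAR libraries were the lowest and JQ1 libraries the highest. CAR lowered it (log2 -0.49 ± 0.05, adjusted p = 4.05e-08), and JQ1 raised it by 0.22 ± 0.048 (adjusted p = 0.000245), a call lost with total count scaling (0.10). The Combination was not called against control (0.09 ± 0.048); it was called higher without control replicate 3 (0.10, adjusted p = 0.0353) and lower with total count scaling (-0.12).

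**Figure D4:**
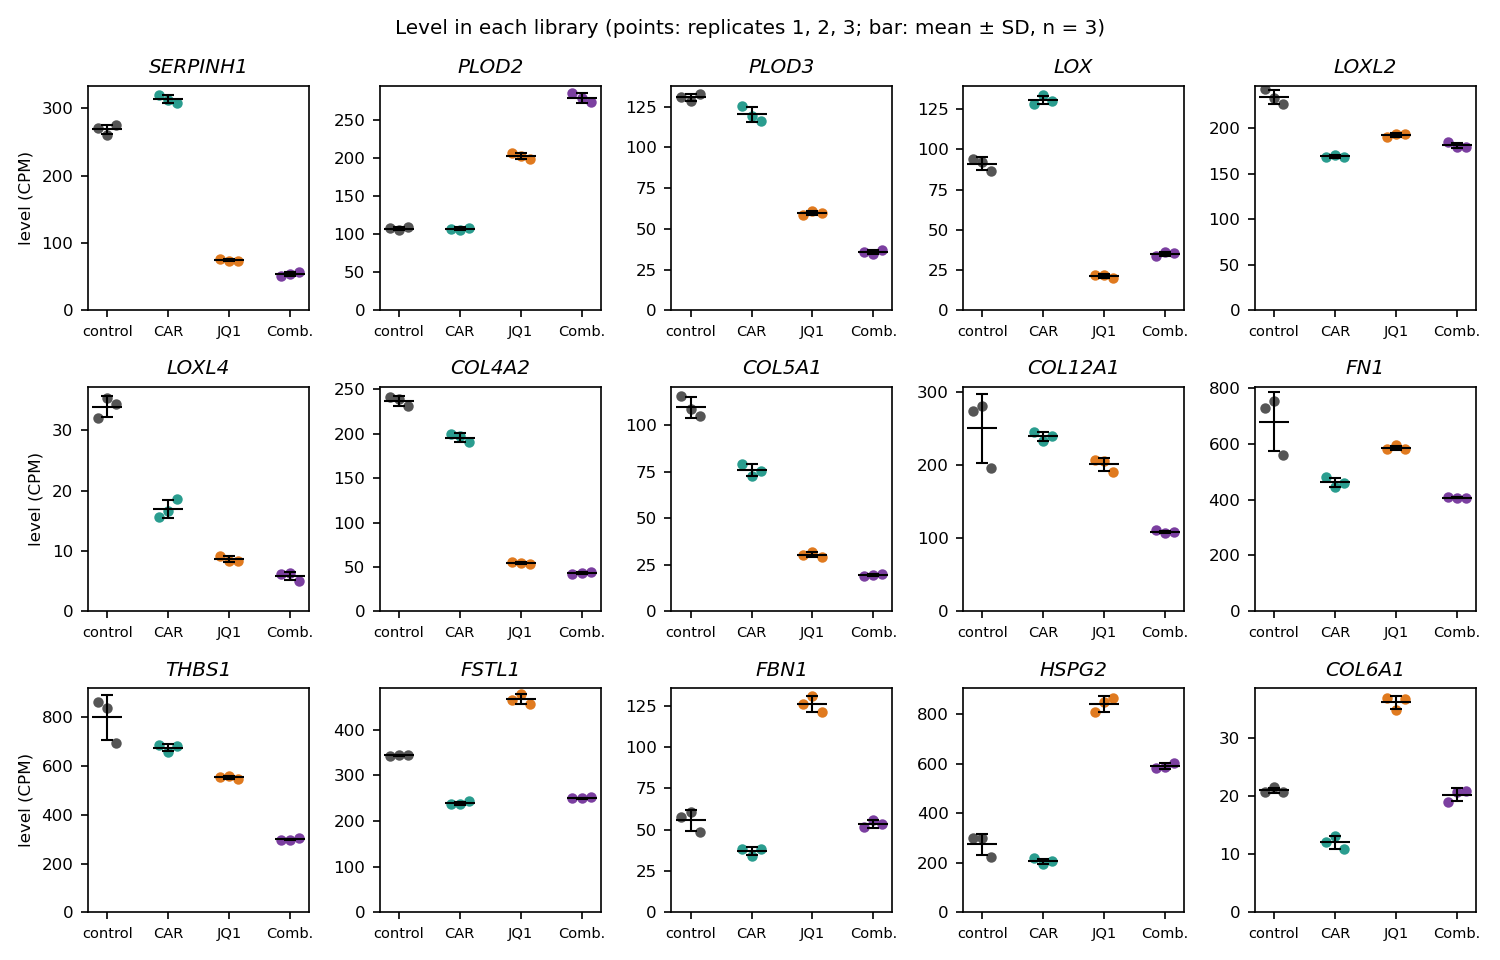
Level in CPM (axes from 0) of 15 matrix genes in each library (points, replicates 1 to 3 from left to right), with the mean and SD of 3 libraries as a bar, for control, CAR, JQ1 and the Combination (Comb.). SERPINH1 goes from 261 to 275 CPM in control to 50.9 to 57.3 CPM in the Combination, while PLOD2 goes from 105 to 109 CPM to 273 to 285 CPM.

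The enzymes and the chaperone that prepare collagen chains diverged. SERPINH1 stood at 270.2, 261 and 275 CPM in the control libraries, 319.8, 313 and 308 CPM with CAR, 76.3, 74.02 and 73.4 CPM with JQ1 and 50.9, 53.9 and 57.3 CPM with the Combination. It was the gene with the highest level per kilobase in CAR, and the 4 groups did not overlap. CAR raised it by 0.29 ± 0.038 and JQ1 lowered it (log2 -1.73 ± 0.042; adjusted p = 1.93e-06 and 1.1e-19 in that order). In the Combination it stood -2.11 ± 0.043 from control and -0.38 ± 0.045 from JQ1 alone (adjusted p = 6.1e-21 and 5.23e-07), so CAR went with a higher level without JQ1 and with a lower level beside it.

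PLOD2 hydroxylates the lysines at the ends of collagen chains, which sets the kind of crosslink that forms later. It stood at 108, 105 and 109 CPM in the control libraries, 107, 105 and 109 CPM with CAR, 207, 202 and 199 CPM with JQ1 and 285, 278 and 273 CPM with the Combination. Control and CAR overlapped, and JQ1 and then the Combination lay above them. JQ1 raised it by 1.04 ± 0.037, the Combination by 1.58 ± 0.037, and the step from JQ1 to the Combination was 0.55 ± 0.035 (adjusted p = 7.31e-17, 3.92e-20 and 3.74e-11). With CAR alone the change was 0.06 ± 0.038 (adjusted p = 0.187). PLOD2 was the tenth of the matrix genes per kilobase in control (28.8 ± 0.51 CPM per kilobase, SD, n = 3) and first in the Combination (74.7 ± 1.64). Its upstream stretch of 250 bases (chr3:146161185-146161434, minus strand, RefSeq, GRCh38.p14) is shown because it rose the most of the 3 lysyl hydroxylases; capitals mark a CCAAT box and CCGCCC, the reverse complement of GGGCGG.
PLOD2: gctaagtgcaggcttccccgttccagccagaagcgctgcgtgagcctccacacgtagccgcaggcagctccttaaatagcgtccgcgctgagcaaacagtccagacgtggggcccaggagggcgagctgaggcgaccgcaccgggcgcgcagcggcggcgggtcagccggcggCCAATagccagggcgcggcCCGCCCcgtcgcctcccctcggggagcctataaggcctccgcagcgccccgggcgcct

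PLOD3, a lysyl hydroxylase that also attaches the sugars of hydroxylysine, fell where PLOD2 rose. It stood at 131, 129 and 133 CPM in the control libraries, 125, 119 and 116 CPM with CAR, 58.6, 60.96 and 60 CPM with JQ1 and 36.1, 34.7 and 36.8 CPM with the Combination. Control and CAR libraries lay close together, and JQ1 and then the Combination lay below them. JQ1 lowered it (log2 -1.01 ± 0.042) and so did the Combination (-1.66 ± 0.045) (adjusted p = 1.42e-15 and 5.77e-19). PLOD1, which hydroxylates lysines of the helix, stood at 115, 119 and 117 CPM in the control libraries, 105, 105 and 104 CPM with CAR, 135, 134 and 146 CPM with JQ1 and 127, 123 and 124 CPM with the Combination. JQ1 libraries were the highest and CAR libraries the lowest. PLOD1 rose by 0.36 ± 0.041 with JQ1 and by 0.30 ± 0.041 with the Combination (adjusted p = 3.2e-08 and 6.83e-07), and the difference with CAR was -0.09 ± 0.041 (adjusted p = 0.0602), which was called lower with RLE, upper-quartile or total count scaling, with a filter of 1 CPM in 3 libraries, with a length offset, and without control replicate 3 or JQ1 replicate 3 (-0.16 to -0.08). Per kilobase, the ratio of PLOD2 to PLOD3 was 0.64 ± 0.0011 in control, 0.70 ± 0.032 with CAR, 2.65 ± 0.095 with JQ1 and 6.09 ± 0.24 with the Combination (SD, n = 3).

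All 5 lysyl oxidases were called in all 3 comparisons with control, as were 44.6% of all tested genes. All 5 were lower with JQ1 and with the Combination, where 42.2% and 42.8% of all tested genes were lower. LOX stood at 94.1, 92.4 and 86.6 CPM in the control libraries, 128, 134 and 130 CPM with CAR, 22.2, 22.2 and 19.9 CPM with JQ1 and 33.5, 36.01 and 35.8 CPM with the Combination. CAR libraries were the highest, and the Combination lay above JQ1 without overlap. CAR raised LOX by 0.59 ± 0.046, JQ1 lowered it (log2 -1.97 ± 0.056), and the Combination lay -1.17 ± 0.052 from control and 0.80 ± 0.061 from JQ1 alone (adjusted p = 8.28e-10, 1.53e-18, 3.31e-15 and 5.5e-10). LOXL3, at summed counts of 141 in control, 252 with CAR, 21 with JQ1 and 26 with the Combination, had calls in the same directions against control.

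LOXL2, an oxidase of collagen IV crosslinking and the most abundant of the family per kilobase, stood at 243, 233 and 227 CPM in the control libraries, 168, 171 and 168 CPM with CAR, 190.2, 194 and 193 CPM with JQ1 and 184, 179 and 179.7 CPM with the Combination. Control libraries were the highest, CAR libraries the lowest, and JQ1 and Combination libraries lay between them. The log2 fold changes were small: -0.41 ± 0.036 with CAR, -0.16 ± 0.036 with JQ1 and -0.16 ± 0.036 with the Combination (adjusted p = 6.25e-09, 0.00027 and 0.000277). Against CAR alone the Combination was higher by 0.24 ± 0.037 (adjusted p = 2.68e-06). LOXL4 stood at 32.1, 35.4 and 34.3 CPM in the control libraries, 15.7, 16.6 and 18.7 CPM with CAR, 9.21, 8.38 and 8.42 CPM with JQ1 and 6.25, 6.31 and 5.08 CPM with the Combination. It fell from group to group without overlap. Log2 fold changes were -0.93 ± 0.074, -1.85 ± 0.084 and -2.32 ± 0.09 (adjusted p = 9.29e-10, 5.09e-15 and 2.91e-16).

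LOXL1, an oxidase tied to elastic fibres, stood at 17.7 ± 0.48 CPM in control, 6.12 ± 0.45 with CAR, 3.50 ± 0.25 with JQ1 and 2.86 ± 0.31 with the Combination (SD, n = 3). CAR lowered it (log2 -1.47 ± 0.088, adjusted p = 1.3e-11), the largest CAR change among the matrix genes of at least 5 CPM. JQ1 lowered it (log2 -2.22 ± 0.099) and so did the Combination (-2.42 ± 0.10), with -0.20 ± 0.14 between the last 2, not called. Per kilobase, the ratio of LOXL2 to LOX was 3.70 ± 0.071 in control, 1.86 ± 0.025 with CAR, 12.96 ± 0.89 with JQ1 and 7.43 ± 0.41 with the Combination (SD, n = 3). The strand setting of the counting is not given, and 15 of the 40 tested genes, LOXL1 with LOXL1-AS1 and COL4A2 with COL4A2-AS1 among them, have exons that overlap a gene on the other strand, whose reads cannot then be told apart.

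Fibronectin (FN1), a glycoprotein whose fibrils serve as a scaffold for collagen assembly, ranked second per kilobase in control. It stood at 727, 751 and 559 CPM in the control libraries, 479, 446 and 459.9 CPM with CAR, 581, 594 and 581 CPM with JQ1 and 408, 406 and 404 CPM with the Combination. Control replicate 3 lay far below the other control libraries, under every JQ1 library and above every CAR library. CAR lowered it (log2 -0.49 ± 0.088) and so did the Combination (-0.53 ± 0.088) (adjusted p = 0.000553 and 0.00013), and the Combination lay -0.44 ± 0.088 from JQ1 alone (adjusted p = 0.00142). JQ1 alone was not called (-0.09 ± 0.087, adjusted p = 0.328), but without control replicate 3 it was, at -0.22 (adjusted p = 4.52e-10), and likewise with a transcript length offset (-0.22, adjusted p = 0.00058) and with total count scaling (-0.21). The Combination was not called against CAR alone (-0.04 ± 0.088, adjusted p = 0.66), but with the length offset it was, at -0.14 (adjusted p = 0.0185).

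FBN1, fibrillin-1 of the elastic microfibrils, rose with JQ1 and overlapped the control level where CAR was given with it. It stood at 57.9, 60.4 and 48.6 CPM in the control libraries, 38.2, 34.3 and 38.3 CPM with CAR, 126, 131 and 121 CPM with JQ1 and 51.4, 55.97 and 53.2 CPM with the Combination. JQ1 libraries were the highest, CAR libraries the lowest, and Combination libraries overlapped control. CAR lowered it (log2 -0.53 ± 0.071) and JQ1 raised it by 1.30 ± 0.065 (adjusted p = 3.75e-06 and 1.55e-13). The Combination lay -1.15 ± 0.065 from JQ1 alone (adjusted p = 2.05e-11). Its call against control (0.15 ± 0.069, adjusted p = 0.0468) was lost with RLE (0.14) or upper-quartile scaling (0.08), with DESeq2 (0.14), with only the compared groups in the fit (0.14), with a length offset (0.05), without control replicate 3 (0.06) and without CAR replicate 1 or 3, JQ1 replicate 1 or 3 or Combination replicate 2 or 3 (0.11 to 0.16), and it turned to -0.05, not called, with total count scaling.

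FSTL1, a secreted relative of SPARC, also fell with CAR and rose with JQ1. It stood at 342, 344 and 345 CPM in the control libraries, 238, 237 and 243 CPM with CAR, 466, 479 and 457 CPM with JQ1 and 249.5, 249.4 and 252 CPM with the Combination. JQ1 libraries were the highest, and the Combination lay just above CAR and below control. CAR lowered it (log2 -0.46 ± 0.033), JQ1 raised it by 0.56 ± 0.033, and the Combination lay -0.25 ± 0.033 from control and -0.81 ± 0.033 from JQ1 (adjusted p = 2.54e-10, 5.01e-13, 4.04e-07 and 1.9e-14). Against CAR alone the Combination was 0.21 ± 0.034 higher, a call lost with total count scaling (0.06). FSTL1 ranked first per kilobase in JQ1 (78.7 ± 1.84 CPM per kilobase, SD, n = 3), just above FN1 (74.1 ± 0.94).

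THBS1, thrombospondin-1, which binds matrix and activates latent TGF-beta, had the highest level per kilobase of all the matrix genes in control. It stood at 862, 839 and 695 CPM in the control libraries, 685, 658 and 681 CPM with CAR, 555, 560.1 and 547 CPM with JQ1 and 297, 297 and 303 CPM with the Combination. Combination libraries lay far below the rest, and control replicate 3 was close to the CAR libraries. The Combination lowered it (log2 -1.21 ± 0.059) and so did JQ1 (-0.41 ± 0.057), and the step from JQ1 to the Combination was -0.80 ± 0.059 (adjusted p = 9.48e-13, 3.22e-06 and 3.97e-09). CAR alone gave -0.18 ± 0.057 (adjusted p = 0.0128), a call lost without control replicate 1 (-0.12), control replicate 2 (-0.14) or CAR replicate 2 (-0.16). SPARC, a collagen-binding protein that guides fibril assembly, was not called with CAR. It stood at 39.5, 35.4 and 35.4 CPM in the control libraries, 34.4, 35.7 and 36.3 CPM with CAR, 15.3, 15.7 and 16.5 CPM with JQ1 and 11.3, 13 and 12.6 CPM with the Combination. Control and CAR overlapped, and JQ1 and then the Combination lay below. Log2 fold changes were -1.10 ± 0.067 with JQ1 and -1.37 ± 0.07 with the Combination (adjusted p = 1.03e-12 and 3.72e-14).

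TNC, tenascin-C, a matricellular protein of wounds and tumours, stood at 13.8 ± 1.25 CPM in control and 8.34 ± 0.45 with CAR (SD, n = 3). It was close to the detection limit with JQ1, at 0.89, 0.11 and 0.46 CPM, and with the Combination, at 0.38, 0.75 and 1.04 CPM. Its log2 fold changes were -0.66 ± 0.14 with CAR, -4.68 ± 0.25 with JQ1 and -4.04 ± 0.23 with the Combination (adjusted p = 0.000593, 1.32e-12 and 3.77e-12), and the JQ1 value was -5.48 without JQ1 replicate 1.

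HSPG2, perlecan, the large heparan sulfate proteoglycan of basement membranes, rose where its neighbours in that structure, COL4A1 and COL4A2, fell. It stood at 298, 300.1 and 224 CPM in the control libraries, 218, 197 and 206 CPM with CAR, 807, 850.4 and 866 CPM with JQ1 and 581, 585 and 603 CPM with the Combination. All JQ1 libraries lay above all Combination libraries, and both groups lay above all control and CAR libraries. JQ1 raised it by 1.74 ± 0.096 and the Combination by 1.31 ± 0.095, while CAR lowered it (log2 -0.34 ± 0.096; adjusted p = 9.78e-09, 1.2e-07 and 0.011 in that order). Against JQ1 alone the Combination was lower (log2 -0.42 ± 0.092, adjusted p = 0.00276). Its upstream stretch of 250 bases (chr1:21937311-21937560, minus strand, RefSeq, GRCh38.p14) is shown for contrast with the shared collagen IV promoter; capitals mark 8 copies of GGGCGG, overlapping copies included, and it holds no CCAAT.
HSPG2: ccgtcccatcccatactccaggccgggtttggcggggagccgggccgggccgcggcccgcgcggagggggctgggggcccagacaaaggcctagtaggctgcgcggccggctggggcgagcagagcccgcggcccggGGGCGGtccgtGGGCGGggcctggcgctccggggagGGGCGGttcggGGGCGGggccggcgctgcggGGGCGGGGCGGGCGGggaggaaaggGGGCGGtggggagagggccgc

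Promoter windows (250 bases before to 50 after a start) were in the RefSeq table for 50 of the 60 genes, and 33 of the 40 tested genes had 43 windows. GGGCGG, read on both strands, was in 62.8% of these windows and in 45.0% of all 35116 promoter windows. CCAAT was in 25.6% against 34.6%, and TATAAA in 6 of the 43 windows against 11.5% of all windows. TGANTCA, the letters of an AP-1 site, was in 0 of the 43 windows and in 7.71% of all windows, which says only that these letters are not in these windows.

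The remaining genes were scarce. In the 11 tested genes whose highest group mean was under 5 CPM, no library had more than 101 counts. Those among them not yet given are COL24A1, COL4A4, COL4A5, COL16A1, COL9A3 and THBS2. COL4A4, a chain of the kidney basement membrane, had summed counts of 267 in control, 172 with CAR, 79 with JQ1 and 57 with the Combination and was called lower in all 3 comparisons, with CAR only as long as control replicates 1 and 2 and CAR replicates 1 and 3 were all in the fit (log2 -0.62, and -0.48 to -0.58 without 1 of these 4). COL4A5, its partner in that membrane, had 72, 37, 48 and 21, and its call with CAR (log2 -0.94) was lost without CAR replicate 1 (-0.64, adjusted p = 0.0746). COL16A1 had 91, 73, 29 and 7, COL24A1 40, 41, 19 and 6, and COL9A3 44, 21, 3 and 6 summed counts in the same order. THBS2 was the exception that rose with JQ1, from 20 to 51 summed counts (log2 1.47 ± 0.34, adjusted p = 0.000412). The 20 genes that were not tested reached at most 22 counts in any library, and 5 of the 60 genes had 0 counts in all control libraries. The untested genes include BGN, POSTN and VCAN, whose summed counts were at most 2, 4 and 27 in any group, and FBN2 with at most 7.

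Whether the agents acted additively was tested by the interaction, the log2 change in the Combination less those of CAR and of JQ1. Of the 40 genes 8 had a positive and 10 a negative interaction, where 20.1% and 18.2% of all tested genes were called, so the share of matrix genes called was close to the background. The positive count was 5 without CAR replicate 3 or without Combination replicate 3, where 17.7% and 18.4% of all tested genes were positive. Of the 18 called, SERPINH1 (-0.67 ± 0.059), PLOD3 (-0.60 ± 0.062), THBS1 (-0.62 ± 0.082), FBN1 (-0.62 ± 0.097), COL12A1 (-0.80 ± 0.17), COL9A2 (-0.92 ± 0.22) and FSTL1 (-0.36 ± 0.047) lay below additivity under each alternative fit. LOXL1 (1.26 ± 0.17), PLOD2 (0.49 ± 0.051), LOXL4 (0.46 ± 0.14), LOXL2 (0.41 ± 0.051) and COL18A1 (0.36 ± 0.069) lay above it under each alternative fit. The other 6 calls each ended when 1 of several libraries was left out. Calls of COL16A1, COL27A1 and SPARC also ended with DESeq2 (-1.66, -0.39 and -0.28 in that order). The same 3 ended without both control replicate 3 and Combination replicate 1 (-1.57, -0.28 and -0.20). For TNC the call also ended with a replicate block (1.30) and with no filter on low counts (1.30). LOX (0.21 ± 0.076) lost its call without control replicate 1 or 2, CAR replicate 1 or 3, JQ1 replicate 3 or Combination replicate 2 or 3 (0.17 to 0.21). TNC (1.30 ± 0.48) lost it without control replicate 1, any CAR replicate, JQ1 replicate 2 or 3 or Combination replicate 2 or 3 (0.83 to 1.33), and stood at 2.10 without JQ1 replicate 1. COL17A1 (1.61 ± 0.61) lost it without control replicate 1, CAR replicate 2 or 3, JQ1 replicate 2 or any Combination replicate (1.04 to 1.66). COL27A1 (-0.39 ± 0.14) lost it without CAR replicate 3, JQ1 replicate 1 or 3 or Combination replicate 1 or 2 (-0.39 to -0.32), and SPARC (-0.29 ± 0.099) without CAR replicate 3, JQ1 replicate 3 or Combination replicate 1 (-0.27 to -0.23). COL16A1 (-1.62 ± 0.61) lost it without control replicate 1, CAR replicate 1 or 3, JQ1 replicate 1 or 3 or Combination replicate 1 or 2 (-1.67 to -1.27), and stood at -2.22 without Combination replicate 3. FN1 was not called (0.05 ± 0.12) but was at 0.18 without control replicate 3 (adjusted p = 0.000107).

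**Figure D5:**
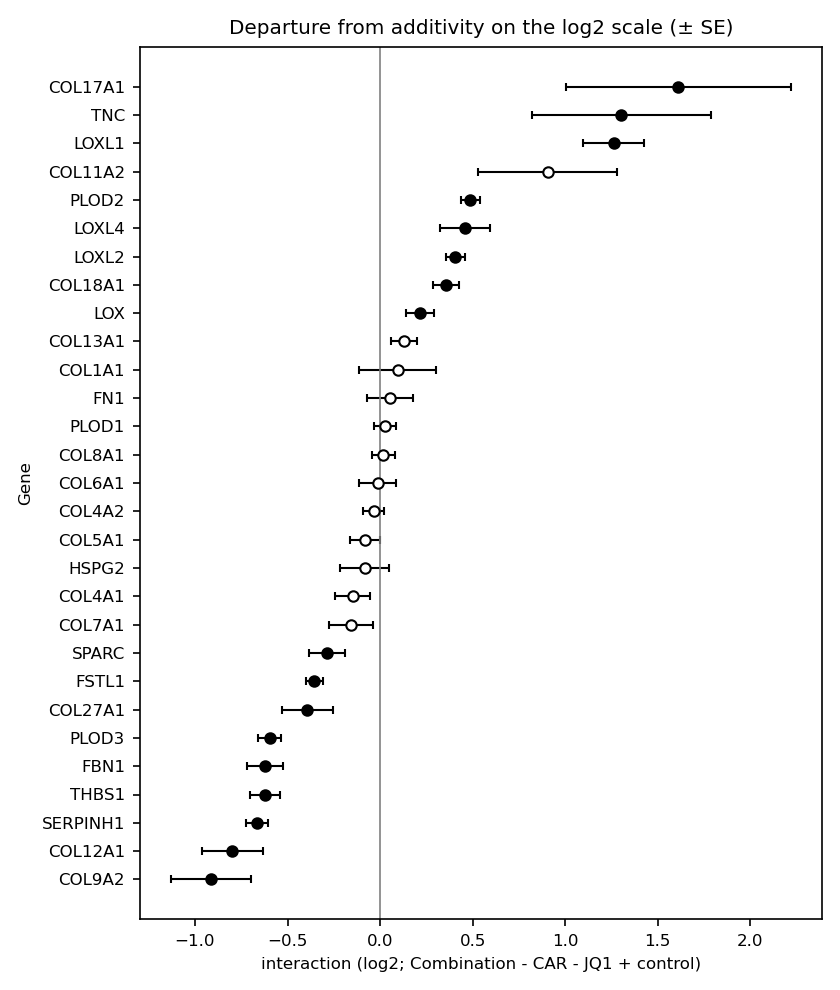
Interaction (log2 change in the Combination less the changes with CAR and with JQ1, ± SE) of the 29 matrix genes of at least 5 CPM; filled points are called, open points are not, and the vertical line marks additive effects. LOXL1 lies at 1.26 and SERPINH1 at -0.67, and the collagen IV pair lies near 0.

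A wider list of 32 genes that fold, modify, export, process or bind collagen had 27 tested members. With CAR 8 were higher and 12 lower, with JQ1 7 and 17, and with the Combination 7 and 17, at median log2 fold changes of -0.07, -0.34 and -0.73. Of all tested genes, 27.3% were higher and 30.1% lower with CAR, 41.5% and 42.2% with JQ1, and 42.6% and 42.8% with the Combination. P4HA1 stood at 124 ± 5.69 CPM in control, 142 ± 2.21 with CAR, 251 ± 1.38 with JQ1 and 501 ± 9.95 with the Combination (SD, n = 3). It encodes the catalytic chain of prolyl 4-hydroxylase, whose hydroxyprolines hold the triple helix together, and it rose by 1.14 ± 0.038 with JQ1 and 2.23 ± 0.038 with the Combination (adjusted p = 2.34e-17 and 6.35e-22). Against JQ1 alone the Combination was higher by 1.08 ± 0.036 for P4HA1 and by 0.66 ± 0.047 for its relative P4HA2. DDR1 stood at 86.6 ± 3.199 CPM in control, 54.03 ± 2.06 with CAR, 22.7 ± 1.59 with JQ1 and 20.96 ± 0.87 with the Combination (SD, n = 3). This collagen-binding receptor kinase fell with CAR (log2 -0.62 ± 0.051) and with JQ1 (-1.81 ± 0.057). ITGA10 stood at 12.6 ± 1.77 CPM in control, 1.72 ± 0.43 with CAR, 1.11 ± 0.03 with JQ1 and 0.817 ± 0.25 with the Combination (SD, n = 3). This subunit of a collagen-binding integrin fell with CAR (log2 -2.80 ± 0.16) and with JQ1 (-3.37 ± 0.18). MIA3 (TANGO1), which loads collagen into export carriers, rose by 1.19 ± 0.047 with JQ1 and 1.15 ± 0.047 with the Combination, and P4HB, the other subunit of prolyl 4-hydroxylase, by 0.81 ± 0.035 with the Combination. P4HB stood at 724 ± 32.2 CPM in control, 717 ± 14.4 with CAR, 978 ± 18.4 with JQ1 and 1102 ± 7.30 with the Combination (SD, n = 3). COLGALT1, which adds galactose to hydroxylysine, was lower in the Combination than with CAR (log2 -0.97 ± 0.039). The collagen uptake receptor MRC2 fell with CAR (-0.58 ± 0.047), and PCOLCE2, an enhancer of procollagen cleavage, rose with CAR by 1.47 ± 0.1. In both groups given JQ1, PCOLCE2 lay below control. Its level was 5.94 ± 0.91 CPM in control, 15.8 ± 0.58 with CAR, 1.87 ± 0.25 with JQ1 and 3.11 ± 0.085 with the Combination (SD, n = 3).

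A list of 38 other matrix glycoproteins and proteoglycans had 23 tested members. With CAR 2 were higher and 13 lower, with JQ1 6 and 15, and with the Combination 6 and 15, at medians of -0.40, -0.78 and -0.81; over all tested genes the shares were 27.3% and 30.1%, 41.5% and 42.2%, and 42.6% and 42.8%. The latent TGF-beta binding proteins were among those that fell: LTBP3 with CAR (log2 -1.20 ± 0.091), LTBP4 with JQ1 (-1.19 ± 0.051) and LTBP2 with JQ1 (-1.99 ± 0.09) and with the Combination (-2.87 ± 0.10). MATN2 stood at 112 ± 2.32 CPM in control, 68.97 ± 0.77 with CAR, 59.8 ± 0.52 with JQ1 and 28.3 ± 2.65 with the Combination (SD, n = 3). Matrilin-2, an adaptor between matrix fibres, fell with CAR (log2 -0.63 ± 0.047) and with the Combination (-1.77 ± 0.052), where the step from JQ1 was -0.99 ± 0.055. PXDN, the peroxidase that forms sulfilimine crosslinks in collagen IV, fell in the Combination (log2 -1.57 ± 0.057) beside the fall of COL4A1 and COL4A2. The mean of PXDN was also below control with JQ1 alone. PXDN stood at 289 ± 28.4 CPM in control, 271 ± 5.04 with CAR, 119 ± 2.49 with JQ1 and 84.5 ± 3.69 with the Combination (SD, n = 3). EFEMP1, a fibulin, fell with JQ1 (log2 -1.09 ± 0.048). THBS3, a further thrombospondin, fell with CAR (-1.12 ± 0.11) but lay above control in both groups given JQ1. Its level was 12.4 ± 1.10 CPM in control, 5.47 ± 1.01 with CAR, 25.3 ± 1.64 with JQ1 and 21.2 ± 0.87 with the Combination (SD, n = 3). CCN2 and CCN1, matricellular proteins, were higher in the Combination than with CAR by 0.94 ± 0.037 and 0.84 ± 0.038. ECM1 was higher in the Combination than with JQ1 by 0.32 ± 0.042, but both groups lay below control. Its level was 123 ± 1.68 CPM in control, 132 ± 3.48 with CAR, 63.3 ± 1.41 with JQ1 and 74.3 ± 1.51 with the Combination (SD, n = 3). TNXB rose by 2.16 ± 0.076 with JQ1, a value that is uncertain because its near-identical partial copy TNXA can share its reads.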

How the data were processed

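The genes and lists were chosen with earlier results of these data known. The authors deposited whole-number read counts per gene symbol, 1 table per library, not normalized, per the file headers and values. Trimmomatic, HISAT2, HTSeq and the build hg38 are listed, per the submitters' processing notes; versions, gene annotation and strand setting are not given in the sources. Groups came from sample titles and treatment labels. The labels do not say whether replicates were separate cultures, so the p-values reflect the spread among these libraries alone, and that spread may be technical. Same-numbered libraries did not deviate together (correlations -0.045 to 0.056 over 18 pairs).

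Counts were fitted in 1 model of all 12 libraries with edgeR 4.0.16 (R 4.3.3, limma 3.58.1): TMM scaling, a filter of at least 10 counts (filterByExpr, total at least 15), robust quasi-likelihood fit, Benjamini-Hochberg adjustment over 12645 genes, 8 residual degrees of freedom. The 6 contrasts were CAR, JQ1 and the Combination against control, the Combination against each agent, and the interaction. Levels per kilobase used the longest APPRIS principal transcript of GENCODE (GRCh38), or the longest transcript where a gene had no principal one. A length of either kind was found for 99.1% of symbols. In every library 3 counts, the floor taken for detection, were 0.152 to 0.172 CPM, which covers counting error only. Genes whose highest group mean was at least 20 CPM (23) have every library printed, 6 of 5 to 20 CPM have group means, and the rest have summed counts; from each of the other lists up to 4 genes per contrast with the smallest adjusted p are named. Alternatives were RLE, upper-quartile and total count scaling, 2 other filters, DESeq2 1.42.0, fewer groups in the fit, a transcript length offset, a replicate block, each library left out and, chosen after seeing the data, control replicate 3 and Combination replicate 1 left out together.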

Additional observations from a re-analysis of the deposited data

Results flagged for a closer look

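SERPINH1 and LOXL2 had calls in opposite directions for 1 agent, depending on whether the other was present. For SERPINH1 the change with CAR was 0.29 against control and -0.38 against JQ1 (log2), and the difference, tested by the interaction in edgeR, was -0.67 ± 0.060 (adjusted p = 3.32e-08). For LOXL2 the change with JQ1 was -0.16 against control and 0.24 against CAR, with a difference of 0.41 ± 0.052 (adjusted p = 3.18e-06). Each direction held in 3 of 3 libraries against 3 of 3.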

How the results depend on the processing

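Of 174 called results of single genes, 151 kept their call and direction in every alternative that gave a value for them. There were at most 23 alternatives per result, and fewer for the interaction and for some scarce genes. Of 33 uncalled results followed, 13 were called in at least 1. The 48 named results of the other 2 lists did not change. The count of positive interactions was 5 at its lowest and 9 at its highest when 1 library was left out, against 8. In those fits 17.7% to 23.8% of all tested genes were positive. With 1 library left out, the change of COL12A1 with CAR ran from -0.149 (without control replicate 3, called, adjusted p = 9.16e-05) to 0.0932 (without control replicate 2, not called); without both control replicate 3 and Combination replicate 1 it was -0.151. Total count scaling gave -0.119 for COL18A1, -0.0545 for COL6A1 and -0.0549 for FBN1 in the Combination and -0.0873 for LOXL2 in the Combination against JQ1. With the replicate block, counts of higher and lower genes were 6 and 23 (CAR), 10 and 23 (JQ1), 6 and 29 (Combination), 3 and 21 (against JQ1), 10 and 24 (against CAR) and 7 and 10 (interaction). Of all tested genes in that fit, 27.3% were higher and 29.8% lower (CAR), 41.4% and 42% (JQ1), and 42.5% and 42.8% (Combination). The Combination gave 25.9% and 25.7% against JQ1 and 42.3% and 43% against CAR, and the interaction 19.8% and 18.1%. Same-numbered libraries did not deviate together, but a weak shared effect could go unseen in that check. The labels do not say what the numbers mark, so whether they pair the samples is not known. DESeq2 called 21 genes lower with CAR and 29 with the Combination, where it called 28% and 42.1% of all tested genes lower. Depth limits the 20 untested genes, which had at most 22 counts in any library.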
